A study of Mus musculus with 24 samples.

Results

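The clustered protocadherins are cell-surface proteins of the cadherin family whose genes stand in 3 neighbouring arrays, the alpha, beta and gamma clusters. Members were chosen by symbol alone, as every mouse gene named Pcdha, Pcdhb or Pcdhga to Pcdhgc with a number or, in the alpha cluster, a C-type name. The annotation held 58 such genes, and 57 of them were among the 36605 genes of the count table. These were 14 alpha members (12 variable and 2 C-type), 22 beta members and 21 gamma members (11 of the A, 7 of the B and 3 of the C type). Pcdhga10 has no exonic base that it does not share with its neighbours and was not analysed here. A total of 54 members had enough reads over the 24 mice to be tested, which were 12 alpha, 21 beta and 21 gamma members. The remaining 3 were Pcdha4 with a median of 1 read per mouse, Pcdha11 with a median of 0 and Pcdhb1 with a median of 3.

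Each variable exon of the alpha and gamma clusters has its own promoter and encodes an entire extracellular and membrane-spanning region, and splicing joins it to constant exons that all members of the cluster share. Beta members are encoded by single exons and have no such constant part. A neuron uses a few of the variable members, chosen largely at random with CTCF and cohesin, while the C-type members are used by most neurons. The proteins bind the same set of isoforms on a facing membrane, and this lets a neuron tell its own branches from those of other neurons.

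PolyA RNA of the adult hippocampus was measured in 24 mice, 3 females and 3 males of each of 4 genotypes, to ask what the loss of the transcription factor Egr1 in the neural lineage does to hippocampal expression. Egr1cKO mice carried the floxed Egr1 allele and the Nestin-Cre transgene, in which the Nestin promoter drives Cre in neural precursors. The Egr1cKO control carried the floxed allele without Cre, the Cre control carried Cre with wild-type Egr1, and the complete wild type carried neither. The floxed line has a C57BL/6 N background, and the paper names the Nestin-Cre line as a B6.Cg transgenic line of Jackson Lab. Exact ages at tissue collection were not given in the sources used here. Mouse numbers in the labels come from separate ranges for floxed and wild-type mice, so in any floxed against wild-type comparison the allele and the mouse series cannot be told apart.

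Library totals ran from 18025168 to 34955004 counts. Levels are CPM, read counts relative to the size of the library, with TMM scaling. Egr1 itself was at 4.85 to 10.2 CPM in the Egr1cKO mice and at 66.9 to 146 CPM in the Egr1cKO control, so the labels and the targeted gene went together (log2FC of −3.57, SE 0.19, adjusted p = 2.99e-08, edgeR's quasi-likelihood test with Benjamini-Hochberg adjustment). The labels name the cell type as endocrine, but 5 of the 6 measured hormone genes of the pituitary (Cga, Fshb, Gh, Pomc and Prl) had means under 1 CPM, while the summed markers of hippocampal excitatory neurons stood between 1820 and 2740 CPM in all mice. In bulk RNA, fewer cells of a type and less RNA per cell cannot be told apart.

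All members lie on the plus strand of chromosome 18 in GRCm38, the assembly also called mm10. The alpha cluster spans positions 36930184 to 37187661, the beta cluster 37264938 to 37524479 and the gamma cluster 37661793 to 37841873. Egr1 is on the same chromosome at 34859823 to 34864984, so the nearest member of each cluster lay 2.07, 2.4 and 2.8 Mb from it.

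The clusters differ in the RNA that can be counted for a member. A median of 46.4% of the exonic bases of an alpha member and 54.7% of those of a gamma member belonged to that gene alone, and most of these were its first exon. Of the 22 beta members, 19 shared no exonic base with another gene. Pcdhb12 is an exception with 36.5% own bases, because the antisense gene Gm37446 covers the rest, and in these non-stranded libraries their reads cannot be separated. Pcdhb21 and Pcdhb22 overlap each other, with 90.3% and 93.1% own bases. First exons of the beta members also had the lower GC content, with a median of 46.0% against 53.1% in the alpha and 52.5% in the gamma cluster. The gene at one alpha position is named Pcdha11 in GENCODE and Pcdha10 in RefSeq, and it is called Pcdha10 here because another gene also has the first name.

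Of the 5 C-type members, 3 had the highest levels of all members. Levels of different genes are compared as CPM per kilobase of own exonic sequence, averaged over 24 mice, on the assumption that reads in shared exons were not counted. On this scale Pcdhgc5, a C-type gamma member known to associate with GABA-A receptors, had the highest level with 17.6. Pcdhgc3, which favours dendrite branching, followed with 10.9, and Pcdhac2, which spaces serotonergic axons, had 9.58. Pcdhgc4, the gamma isoform needed for neuron survival, stood at 2.47 and Pcdhac1 at 1.16. The most abundant variable member of the gamma cluster was Pcdhga11 with 7.53, on 26.4% own bases. In the alpha cluster, Pcdha12 with 2.19 and Pcdha5 with 1.57 led the variable members. Other variable gamma members also stood above Pcdha12, such as Pcdhgb6 with 4.8. The most abundant beta members were Pcdhb9 with 4.76, Pcdhb17 with 3.33 and, with the uncertainty named above, Pcdhb12 with 3.01. The least abundant tested members were Pcdha8 with 0.14 in the alpha cluster, Pcdhb21 with 0.694 in the beta cluster and Pcdhgb8, annotated as a polymorphic pseudogene, with 0.95 in the gamma cluster.

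Use was therefore uneven within the alpha and gamma clusters and more even within the beta cluster. Pcdhac2 made up 49.9% ± 3.3 (SD, n = 24) of the summed alpha CPM, and Pcdhgc5 made up 34.2% ± 1.94 of the summed gamma CPM. The largest beta shares were 10.5% ± 0.997 for Pcdhb17 and 9.92% ± 1.06 for Pcdhb9. Members of the beta cluster also varied least between mice. The ratio of the highest to the lowest mouse had a median of 2.26 over the tested beta members and 3.09 over the gamma members. It was 3.76 over the alpha members other than Pcdha8, which had 0 reads in 1 mouse and so has no ratio. Low counts enter these ratios, as in Pcdha1, with 2 reads in its lowest mouse and a ratio of 22.9.

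**Figure D1:**
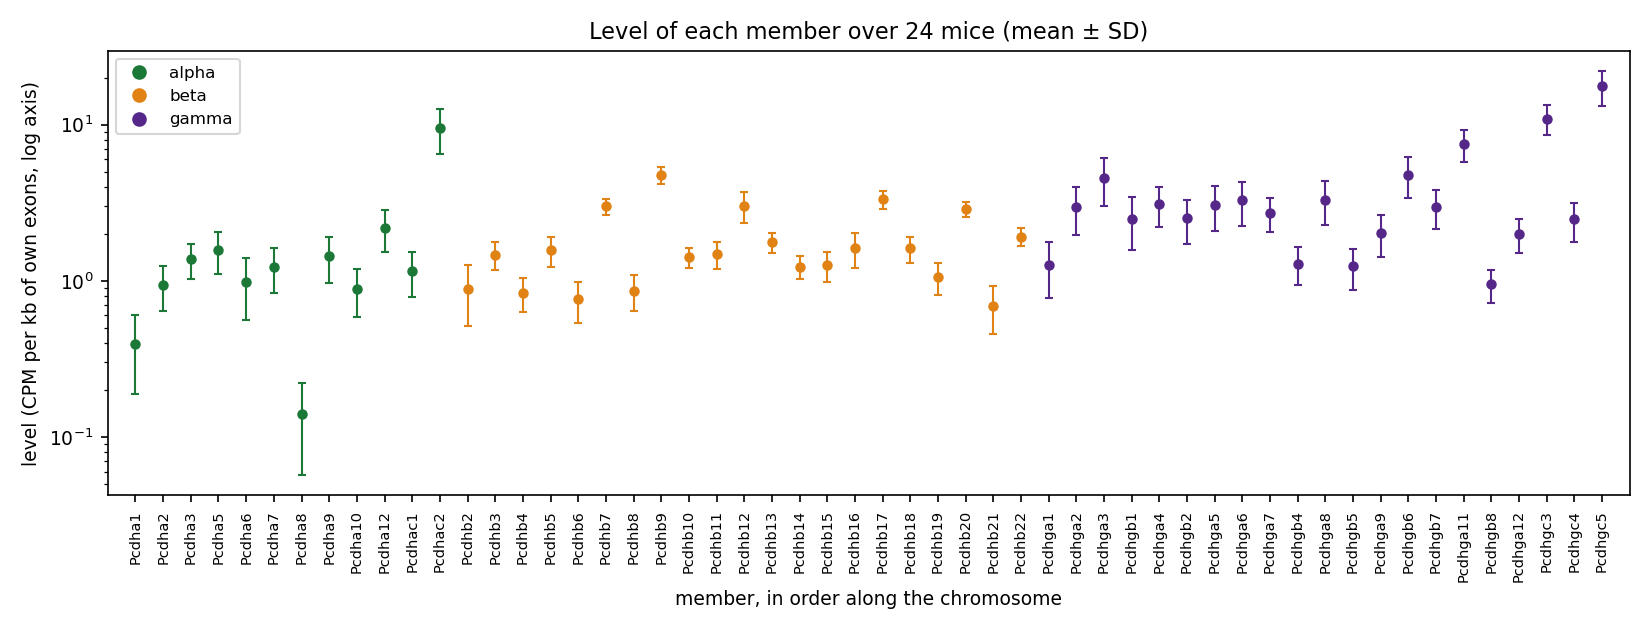
Mean level of each clustered protocadherin over 24 mice, in CPM per kilobase of the exonic sequence that only this gene has (log axis), with members in chromosome order and bars for the SD between mice. Pcdhgc5 at 17.6, Pcdhgc3 at 10.9 and Pcdhac2 at 9.58 stand highest, and Pcdha8 at 0.14 is the lowest tested member.

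The summed levels of the alpha and gamma clusters were highest in the Egr1cKO mice and lowest in both genotypes with a single modification. The alpha sum ran from 44.4 to 80.1 CPM in the Egr1cKO mice with a median of 72.0, and from 37.6 to 73.5 CPM in the Egr1cKO control with a median of 42.6. In the Cre control it ran from 34.0 to 79.6 CPM (median 46.0) and in the complete wild type from 52.1 to 73.8 CPM (median 62.8). Ranges of all 4 genotypes overlapped, with male Egr1cKO replicate 3 far below the other Egr1cKO mice, male Cre control replicate 2 far above the rest of its group, and replicate 1 of both sexes above the rest of the Egr1cKO control.

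The gamma sum followed the same order by median. It ran from 205 to 315 CPM in the Egr1cKO mice (median 294), from 153 to 299 CPM in the Egr1cKO control (median 188), from 149 to 317 CPM in the Cre control (median 194) and from 226 to 311 CPM in the complete wild type (median 240). The mice at the edges were the same: male Egr1cKO replicate 3 was lowest of its group, and male Egr1cKO control replicate 1 and male Cre control replicate 2 were highest of theirs. The beta sum moved in a narrower band, from 126 to 164 CPM in the Egr1cKO mice, 121 to 153 in the Egr1cKO control, 127 to 164 in the Cre control and 145 to 167 in the complete wild type. Over all 24 mice the highest sum was 2.36 times the lowest for alpha, 2.13 times for gamma and 1.38 times for beta. The Egr1cKO mice and the complete wild type had mean alpha sums of 68.6 ± 12.4 and 62.9 ± 9.27 CPM (SD, n = 6 each). Their mean beta sums were 154 ± 13.9 and 155 ± 8.78 CPM, and their mean gamma sums 281 ± 39.5 and 253 ± 34.1 CPM. These 2 genotypes were not compared by a test.

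**Figure D2:**
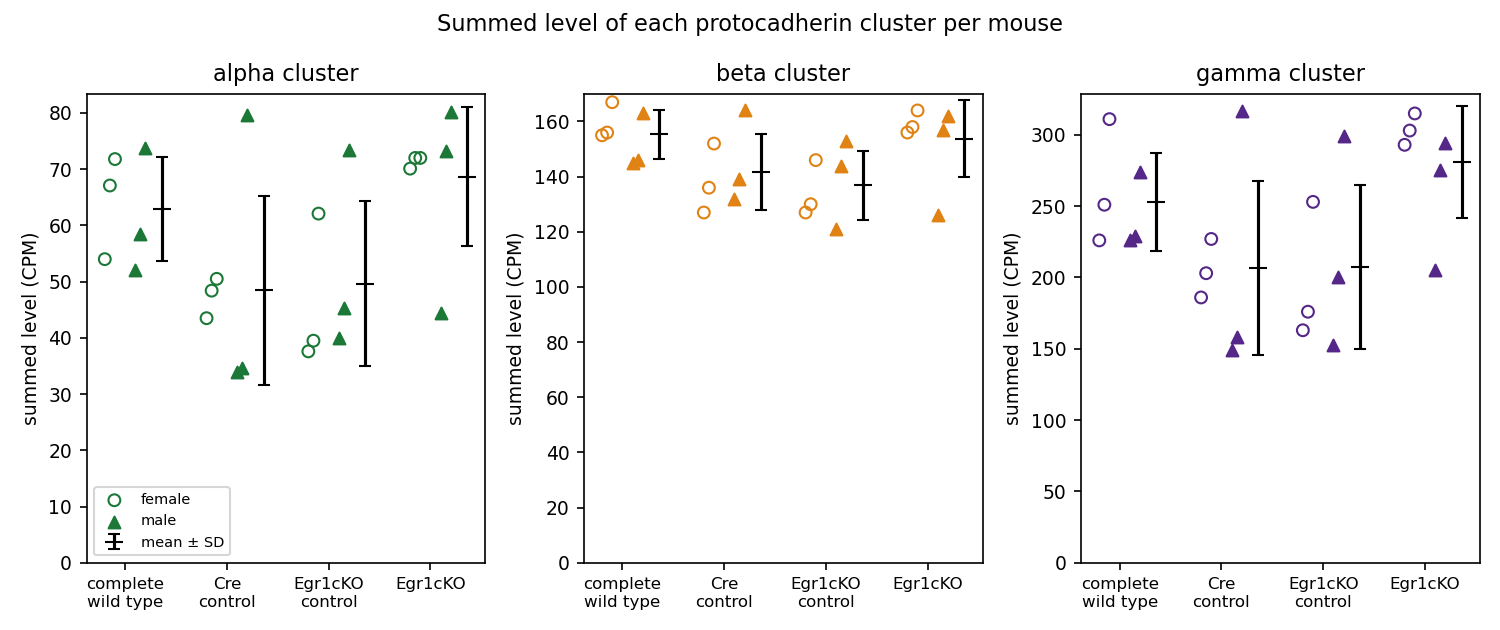
Summed CPM of the alpha, beta and gamma members in each of the 24 mice by genotype, with 1 point per mouse, the sexes marked by symbol, and the mean and SD of each group of 6. Alpha and gamma sums spread widely within the Egr1cKO control and the Cre control, and 1 male Egr1cKO mouse lies well below its group in every cluster (44.4, 126 and 205 CPM).

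The first comparison set Egr1cKO mice against the Egr1cKO control, which share the floxed allele and the range of mouse numbers and differ in Cre and thereby in Egr1. The mean alpha sum was 68.6 ± 12.4 CPM against 49.7 ± 14.7 (SD, n = 6 each), a log2 ratio of 0.47. The mean gamma sum was 281 ± 39.5 against 207 ± 57.5 CPM, a log2 ratio of 0.44, and the mean beta sum was 154 ± 13.9 against 137 ± 12.6 CPM, a log2 ratio of 0.17. These sums are a description and were not tested.

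Gene by gene, edgeR's quasi-likelihood test called none of the 54 tested members at a fold change of at least 1.2 and a Benjamini-Hochberg adjusted p of at most 0.05, where 0.0215% of all 18622 tested genes were called. At an unadjusted p under 0.05, 18 members were higher in the Egr1cKO mice, 3 alpha, 3 beta and 12 gamma, and 0 were lower. Over all tested genes, 7.95% were higher at that limit and 7.54% lower. The fitted log2FC was above 0 for 48 members against 49.1% of all genes, with a median of 0.34 over the members and 0.00 in size over all genes. Members of the gamma A type had the highest median of the subfamilies, 0.59, and 7 of its 11 members were among the 18. No member separated the 6 Egr1cKO mice from the 6 Egr1cKO control mice, where 0.172% of all genes did so upwards and 0.274% downwards.

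The gamma A members Pcdhga2, Pcdhga3 and Pcdhga5, variable isoforms with no single role known to set them apart, had the smallest p-values. Pcdhga2 ran from 5.94 to 13.5 CPM in the Egr1cKO mice (median 9.24) and from 4.54 to 7.06 CPM in the Egr1cKO control (median 4.9). Only male Egr1cKO replicate 3 lay within the range of the control. The log2FC was 0.79 (SE 0.17, adjusted p = 0.252, edgeR). Pcdhga3 ran from 10.2 to 20.6 CPM (median 16.6) against 6.13 to 13.5 CPM (median 9.02), and again male Egr1cKO replicate 3 was the only Egr1cKO mouse below the highest control. Its log2FC was 0.79 (SE 0.20, adjusted p = 0.252, edgeR). Pcdhga5 ran from 7.57 to 12.2 CPM against 3.79 to 8.97 CPM, with a log2FC of 0.66 (SE 0.20, adjusted p = 0.257, edgeR) and overlapping groups.

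The other tool run, DESeq2, called 2 members, Pcdhga2 with an adjusted p of 0.0118 and Pcdhga3 with 0.0232, against 0.231% of all genes that it tested. Over all 19 alternatives the adjusted p ran from 5.07e-05 to 1 for Pcdhga2 and from 1.87e-07 to 1 for Pcdhga3. Both low ends came from edgeR without the filter on low counts, which called 2.36% of all genes. Calls in edgeR turned on single mice. Without male Egr1cKO control replicate 1, 7 members were called (Pcdhga2, Pcdhga3, Pcdhac2, Pcdhga5, Pcdhgc5, Pcdhgb6 and Pcdhga8) and 34 had an unadjusted p under 0.05, where 1.46% of all genes were called and 21.3% were at that limit in either direction. Without male Egr1cKO replicate 3, 1 member was called, Pcdhga2, and 30 had an unadjusted p under 0.05, against 0.0676% and 22.4% of all genes.

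Of the C-type members, Pcdhac2 showed the largest difference. It ran from 24.2 to 44.2 CPM in the Egr1cKO mice (median 37.4) and from 17.1 to 37.2 CPM in the Egr1cKO control (median 20.0), and male Egr1cKO replicate 3 was the only Egr1cKO mouse below 35.9 CPM. The log2FC was 0.61 (SE 0.19, adjusted p = 0.261, edgeR). Pcdhgc5 ran from 70.8 to 107 CPM (median 101) against 49.3 to 108 CPM (median 64.5), with a log2FC of 0.42 (SE 0.16, adjusted p = 0.276, edgeR). Here the highest of the 12 mice was a control. Pcdhgc4 had a log2FC of 0.49 (SE 0.18), Pcdhac1 of 0.42 (SE 0.26) and Pcdhgc3 of 0.11 (SE 0.15).

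The abundant beta members differed little. Pcdhb17 ran from 14.6 to 19.5 CPM in the Egr1cKO mice and from 12.1 to 17.4 CPM in the Egr1cKO control, a log2FC of 0.13 (SE 0.11). Pcdhb9 had a log2FC of 0.01 and Pcdhb12 of −0.13. The 3 beta members with an unadjusted p under 0.05 were Pcdhb2 with a log2FC of 0.67, Pcdhb8 with 0.47 and Pcdhb14 with 0.29. Pcdhb14 falls outside the rule for named members and was picked after its value was seen.

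**Figure D3:**
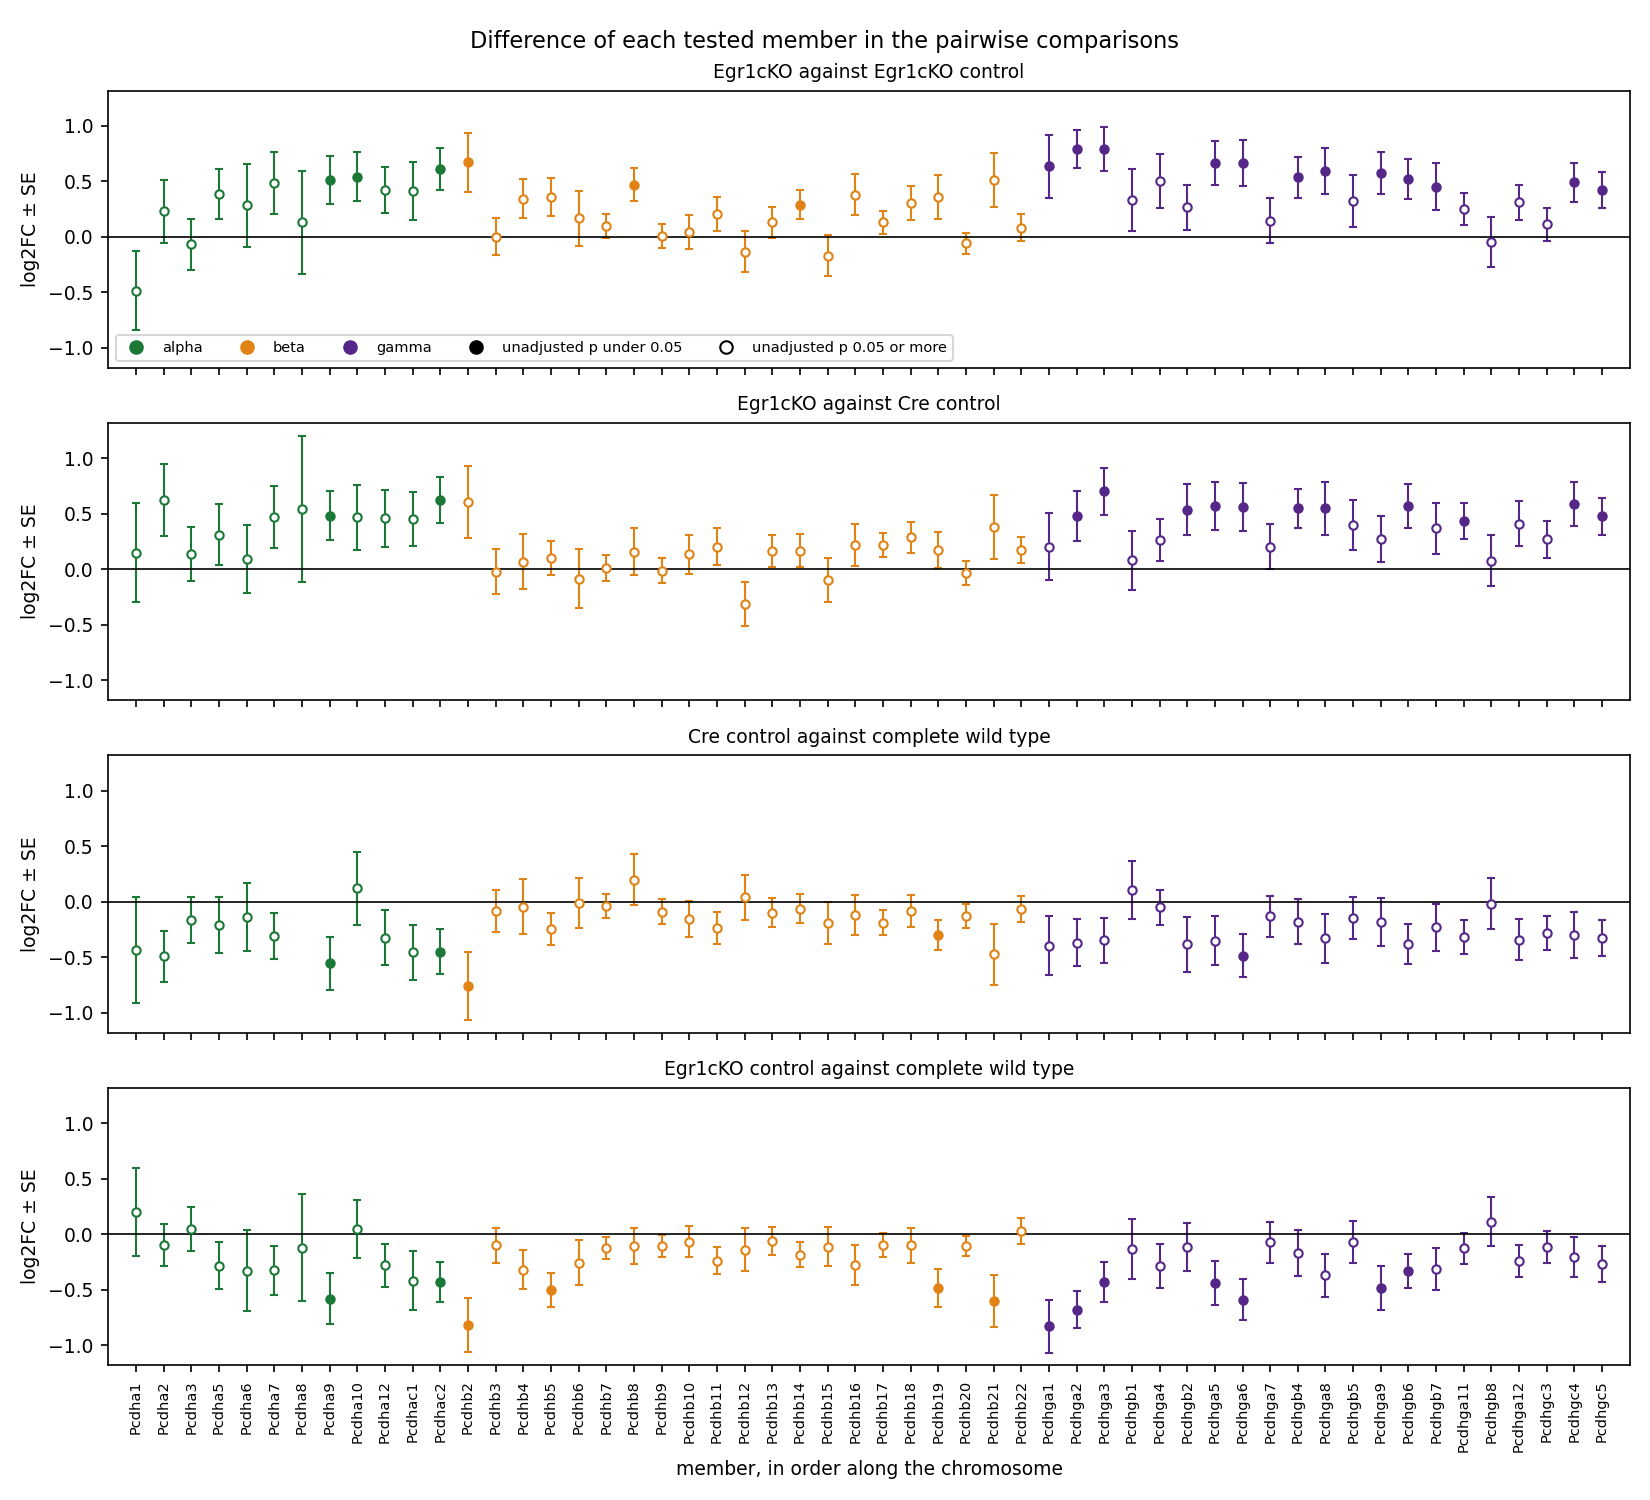
Log2 fold change with its SE (edgeR) of each tested member, in chromosome order and coloured by cluster and filled at an unadjusted p under 0.05, for the 4 pairwise genotype comparisons. Medians over the tested members are 0.34 and 0.27 for the Egr1cKO mice against each control and −0.21 and −0.22 for each control against the complete wild type, and no adjusted p reached 0.05.

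Among females the separation was wider than among males. The female alpha sum was 71.4 ± 1.09 CPM in the Egr1cKO mice and 46.4 ± 13.6 in the Egr1cKO control (SD, n = 3 each), the beta sum 159 ± 4.0 against 135 ± 10.3 CPM and the gamma sum 304 ± 10.8 against 197 ± 48.7 CPM, each without overlap. In males all 3 sums overlapped, with log2 ratios of 0.32, 0.09 and 0.25. In females 24 of the 54 members separated the groups upwards, 3 alpha, 7 beta and 14 gamma, where 11.3% of all genes did. In males 1 member did so, Pcdhb8, where 3.94% of all genes did.

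The difference between the sexes was tested as an interaction, and edgeR called none of the members (0% of all genes called), with 2 members at an unadjusted p under 0.05 in the direction of a larger value in females, where 1.18% of all genes were, and 0 in the other direction, where 3.03% were. These were Pcdhga4 with an interaction of 1.15 on the log2 scale (SE 0.40, adjusted p = 0.999) and Pcdhb5 with 0.67 (SE 0.31). Pcdhga2 had 0.66 (SE 0.31). DESeq2 also called 0 members, and it called 0.00875% of all genes. At an unadjusted p under 0.05 it had 5 members, where 2.83% of all genes were in either direction. The median interaction over the members was 0.33 in edgeR, and it ran from 0.05 to 0.53 with 1 mouse at a time left out. Without male Egr1cKO control replicate 1, the interaction of 16 of the 54 members changed sign, so the sex contrast leaned on that mouse.

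The second comparison, Egr1cKO mice against the Cre control, held Cre constant and set floxed against wild-type Egr1 across the 2 ranges of mouse numbers. The log2 ratios of the sums were 0.50 for alpha, 0.12 for beta and 0.44 for gamma. Both comparisons use the same Egr1cKO mice, so their values are not independent. EdgeR called none of the 54 members (0.00541% of all genes called). At an unadjusted p under 0.05, 13 members were higher, 2 alpha, 0 beta and 11 gamma, and 0 were lower, where 6.41% of all genes were higher and 5.64% lower. The median log2FC was 0.46 over the alpha, 0.16 over the beta and 0.44 over the gamma members, against −0.01 over all genes, and 48 members had a log2FC above 0 where 46.9% of all genes had. DESeq2 called 0 members and 0.088% of all genes. At an unadjusted p under 0.05 it had 14 members higher, where 7.84% of all genes were in either direction. No member separated the groups, where 0.13% of all genes did so upwards and 0.227% downwards.

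Pcdhga3, Pcdhgb4 and Pcdhac2 had the smallest p-values here. Pcdhga3 ran from 7.09 to 16.8 CPM in the Cre control with a median of 8.66, against the Egr1cKO median of 16.6, and male Cre control replicate 2 alone gave the upper end. Its log2FC was 0.70 (SE 0.21, adjusted p = 0.356, edgeR). Pcdhgb4, a variable gamma B isoform, ran from 5.49 to 6.14 CPM in the Egr1cKO mice and from 2.68 to 6.24 CPM in the Cre control, so the Egr1cKO mice lay in a narrow band at the upper end of the control range. Its log2FC was 0.55 (SE 0.18, adjusted p = 0.356, edgeR). Pcdhac2 ran from 15.5 to 42.4 CPM in the Cre control with a median of 22.2, with a log2FC of 0.62 (SE 0.21, adjusted p = 0.356, edgeR).

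Calls turned here on male Cre control replicate 2. Without it edgeR called 13 members and 27 had an unadjusted p under 0.05, where 4.12% of all genes were called and 20.8% were at that limit in either direction. Pcdhac2 then had a log2FC of 0.91 and an adjusted p of 0.00499, within a range from 7.04e-07 to 0.825 over its 19 alternatives. The low end came from edgeR without the filter on low counts, which called 1.55% of all genes. Without male Egr1cKO replicate 3, 23 members had an unadjusted p under 0.05 and 0 were called, against 18.5% and 0.00523% of all genes.

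The Cre transgene alone went with lower values. Cre control mice against the complete wild type, all from 1 range of mouse numbers, gave log2 ratios of the sums of −0.38 for alpha, −0.13 for beta and −0.29 for gamma. EdgeR called none of the 53 tested members and 0% of all genes. At an unadjusted p under 0.05, 5 members were lower (Pcdha9, Pcdhac2, Pcdhb2, Pcdhb19 and Pcdhga6) and 0 were higher, where 2.81% of all genes were lower and 3.13% higher. Pcdhb19 was picked after its value was seen. The median log2FC was −0.32 over the alpha, −0.10 over the beta and −0.32 over the gamma members, against 0.01 over all genes, and 4 of the 53 members had a log2FC above 0 where 52.9% of all genes had. DESeq2 called 0 members and 0.0585% of all genes. At an unadjusted p under 0.05 it had 8 members lower, where 3.83% of all genes were in either direction. No member separated the groups, where 0.129% of all genes did so downwards.

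Pcdhb2 ran from 0.96 to 3.15 CPM in the Cre control (median 1.79) and from 1.89 to 4.45 CPM in the complete wild type (median 3.22), with a log2FC of −0.76 (SE 0.30, adjusted p = 0.778, edgeR). Pcdhga6 ran from 4.73 to 10.9 CPM (median 5.86) against 8.81 to 11.7 CPM (median 9.44), with a log2FC of −0.49 (SE 0.19). Of the Cre control mice, female replicate 1 and male replicate 2 reached the range of the wild type and the other 4 lay below it. Pcdha9, an alpha variable isoform, had a log2FC of −0.55 (SE 0.24), and Pcdhac2 of −0.45 (SE 0.20).

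The counts in this comparison turned on few mice. Without male Cre control replicate 2, edgeR called 3 members, Pcdhac2, Pcdhgc5 and Pcdhga12, the last of which was named after its value was seen, and 22 had an unadjusted p under 0.05, where 1.07% of all genes were called and 16.0% were at that limit in either direction. The log2 ratios of the alpha and gamma sums were then −0.575 and −0.455. Leaving out male Cre control replicate 1, female Cre control replicate 2 or 3, or female complete wild type replicate 2 or 3 left 1 such member each, and leaving out male Cre control replicate 3 left 2, where 3.87% to 5.3% of all genes were at that limit.

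The floxed allele without Cre also went with lower values. The Egr1cKO control mice are also the reference of the first comparison, and the complete wild type is shared with the Cre comparison. The values of these comparisons are therefore not independent. Egr1cKO control mice against the complete wild type gave log2 ratios of the sums of −0.34 for alpha, −0.18 for beta and −0.29 for gamma. EdgeR called none of the 54 members and 0% of all genes. At an unadjusted p under 0.05, 13 members were lower, 2 alpha, 4 beta and 7 gamma, and 0 were higher, where 3.97% of all genes were lower and 5.31% higher. The medians were −0.28, −0.12 and −0.27 over the alpha, beta and gamma members, against 0.00 over all genes. DESeq2 called 0 members and 0.00583% of all genes. At an unadjusted p under 0.05 it had 12 members lower, where 5.76% of all genes were in either direction. No member separated the groups, where 0.101% of all genes did so downwards.

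Pcdhga2 had the smallest p, with 4.54 to 7.06 CPM in the Egr1cKO control against 6.01 to 11.7 CPM in the complete wild type (medians 4.9 and 9.1) and a log2FC of −0.68 (SE 0.16, adjusted p = 0.533, edgeR). Pcdhga1 ran from 1.15 to 4.15 CPM against 3.53 to 6.66 CPM, a log2FC of −0.83 (SE 0.24). Pcdhb2 ran from 1.41 to 2.82 CPM against 1.89 to 4.45 CPM, a log2FC of −0.82 (SE 0.24). In all 3 the groups overlapped at the upper end of the control. Without male Egr1cKO control replicate 1, 26 members had an unadjusted p under 0.05 and 0 were called, against 17.1% and 0.00512% of all genes, and without female replicate 2 or 3 of that group 7 or 8 members did, against 5.58% and 5.72%.

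A fit over all 24 mice asked whether floxP and Cre together gave another value than the sum of their separate differences. It uses the mice of the pairwise comparisons again, so its values are not independent of theirs. The interaction was above 0 for 51 of 54 members, with medians of 0.68 over alpha, 0.26 over beta and 0.72 over gamma members, against −0.03 over all genes and 46.1% of all genes above 0. EdgeR called none (0.00507% of all genes called). At an unadjusted p under 0.05, 24 members were above 0, 5 alpha, 5 beta and 14 gamma, and 0 below, where 9.12% of all genes were above and 9.3% below. Pcdhga2 had an interaction of 1.16 on the log2 scale (SE 0.29, adjusted p = 0.159, edgeR), Pcdhga6 of 1.15 (SE 0.30) and Pcdhga3 of 1.13 (SE 0.30). DESeq2 had 24 members above 0 at an unadjusted p under 0.05, where 10.8% of all genes were in either direction. It gave an adjusted p to only 1 of the 57 members, Pcdhgc5 with 0.0659, so its calls, 0.836% of all genes, say nothing of the other members.

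A further comparison set the 6 Egr1cKO mice against the 18 other mice. The log2 ratios of the sums were 0.36 for alpha, 0.09 for beta and 0.34 for gamma. EdgeR called none of the 54 members (0.00507% of all genes called). At an unadjusted p under 0.05, 13 members were higher, 2 alpha, 1 beta and 10 gamma, and 0 lower, where 7.18% of all genes were higher and 7.6% lower. DESeq2 called 0 members and 0.115% of all genes. It had 13 members higher at that limit, where 9.18% of all genes were in either direction. Pcdhga3 had a log2FC of 0.61 (SE 0.17, adjusted p = 0.201, edgeR), Pcdhgb4 of 0.47 (SE 0.16) and Pcdhgc4 of 0.45 (SE 0.16). Without male Egr1cKO replicate 3, Pcdhga3 was called with a log2FC of 0.73 and an adjusted p of 0.0404, the low end of a range that reached 0.606 over its 12 alternatives, and 21 members had an unadjusted p under 0.05, where 1.2% of all genes were called and 20.6% were at that limit in either direction. Without female Egr1cKO replicate 2, 8 members did, against 9.84% of all genes. No member separated the groups, where 0.00507% of all genes did so upwards.

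**Figure D4:**
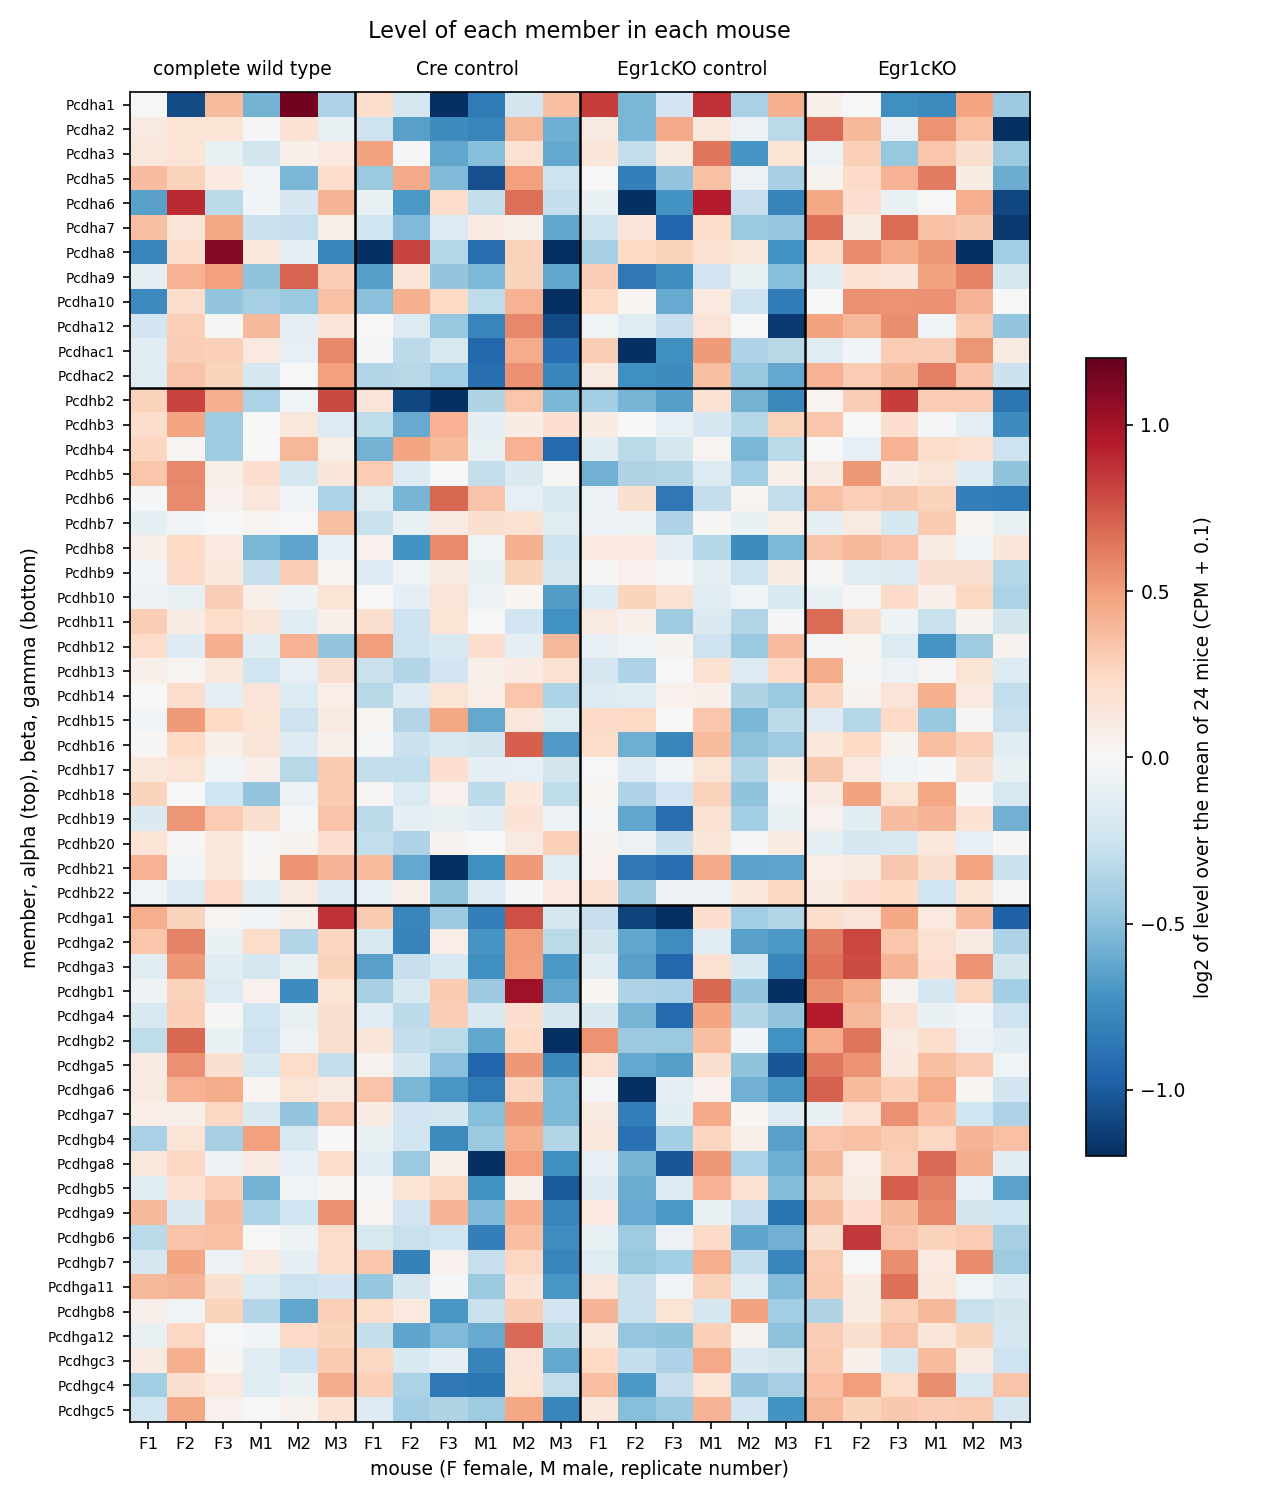
Level of each tested member in each of the 24 mice, as log2 of its CPM plus a small constant relative to the mean over all mice, with members in chromosome order and mice ordered by genotype and sex (colour limited at the ends of the scale). Columns of the same colour across alpha and gamma members mark mice such as male Cre control replicate 2 (alpha sum 79.6 CPM) and male Egr1cKO replicate 3 (44.4 CPM).

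Sex by itself showed little. In 12 females against 12 males the log2 ratios of the sums were 0.00 for alpha, 0.02 for beta and 0.06 for gamma. EdgeR called none of the 54 members (0.0658% of all genes called), with 3 higher and 2 lower in females at an unadjusted p under 0.05, where 2.88% of all genes were higher and 2.91% lower. Those higher were Pcdhb8 with a log2FC of 0.36 (SE 0.13, adjusted p = 0.744, edgeR), Pcdhb11 with 0.27 (SE 0.10) and Pcdhga11 with 0.27 (SE 0.11), and those lower were Pcdhb7 and Pcdhb20, named after their values were seen. DESeq2 called 0 members and 0.0437% of all genes. At an unadjusted p under 0.05 it had 3 members higher and 2 lower, where 3.81% of all genes were in either direction. The log2FC was above 0 for 37 members, where it was for 49.4% of all genes, and no member separated the sexes, where 0.0101% of all genes did so upwards and 0.0253% downwards.

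Several properties of the libraries moved with these values. The summed CPM of 75 cytoplasmic ribosomal protein genes was 9130 ± 825 in the Egr1cKO mice, 10700 ± 1490 in the Egr1cKO control, 10500 ± 1420 in the Cre control and 9610 ± 721 in the complete wild type (SD, n = 6 each), so its order by genotype was the reverse of that of the alpha and gamma medians. Male Egr1cKO replicate 3 had 10400 CPM in place of the 8320 to 9850 CPM of the other Egr1cKO mice, and male Cre control replicate 2 had 8230 CPM, the lowest of all 24 mice. After this was seen, the levels of 1 abundant member per cluster were related to that sum on the log2 scale, with p-values from 100000 permutations, of which 1e-05 is the smallest they can give. Pcdhac2 had Pearson's r = −0.89 and Spearman's rho = −0.905 (permutation p = 1e-05 for each, 1.5e-05 adjusted over the 3 members), and r = −0.896 without the 2 mice farthest from the median.

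Pcdhgc5 had r = −0.888 and rho = −0.866 (permutation p = 1e-05 for each, 1.5e-05 adjusted) and r = −0.841 without these 2 mice. Pcdhb17, the beta member, had r = −0.313 (permutation p = 0.138, adjusted 0.138) and rho = −0.316 (permutation p = 0.133, adjusted 0.133), and r = −0.363 without these 2 mice. Within genotypes of 6 mice each, r for Pcdhac2 was −0.722 in the Egr1cKO mice, −0.815 in the Egr1cKO control, −0.935 in the Cre control and −0.893 in the complete wild type. The same values were −0.635, −0.94, −0.956 and −0.471 for Pcdhgc5 and 0.136, −0.242, 0.126 and −0.731 for Pcdhb17. Both quantities are shares of 1 library total.

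**Figure D5:**
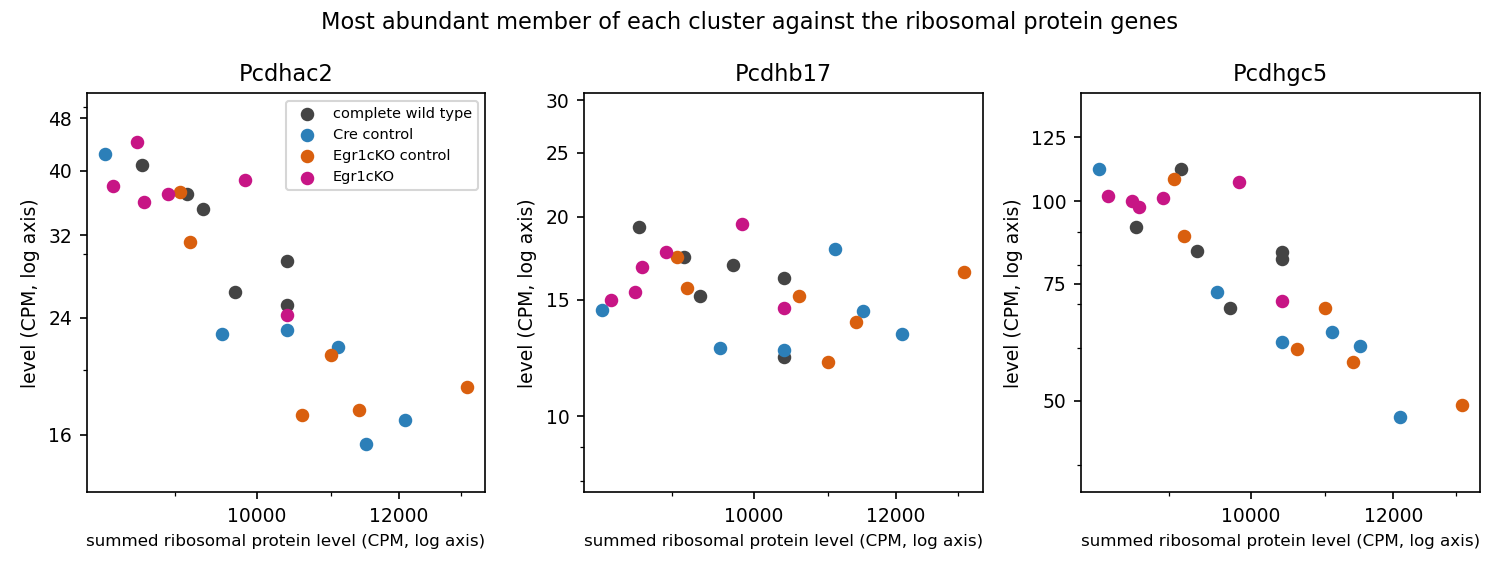
Level of Pcdhac2, Pcdhb17 and Pcdhgc5 (CPM, log axis spanning the same fold in each panel) against the summed CPM of 75 ribosomal protein genes (log axis) in 24 mice, with 1 point per mouse and colour for genotype. Pcdhac2 (r = −0.89) and Pcdhgc5 (r = −0.888) are lower where the ribosomal sum is higher, and Pcdhb17 (r = −0.313) scatters.

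With the ribosomal protein sum as a covariate, added after the data were seen, 3 members in place of 18 had an unadjusted p under 0.05 in the Egr1cKO mice against the Egr1cKO control. The median log2FC of the members was then 0.08, with −0.04 over alpha, 0.08 over beta and 0.16 over gamma members. The number of all genes at that limit was 888 in place of 2886, and 14 of the 54 members changed sign, among them Pcdha5 from 0.38 to −0.06 and Pcdhgc3 from 0.11 to −0.12. Genes other than the members also moved by transcript length in this comparison. The median log2FC was −0.13 over 1719 genes whose longest transcript is under 1 kb, −0.05 over 10744 genes of 1 to 4 kb and 0.09 over 6079 longer genes. Whether RNA composition or quality has a part in the members' values was not tested.

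Markers of some cell types also differed between groups. In the Egr1cKO mice and the Egr1cKO control, the summed markers of oligodendrocytes (5 genes) were 3820 ± 559 and 4880 ± 664 CPM, those of astrocytes (5 genes) 1650 ± 177 and 1380 ± 140 CPM, and those of neurons (5 genes) 5150 ± 252 and 4780 ± 242 CPM (SD, n = 6 each), with all markers of these lists above 1 CPM on average. Of the oligodendrocyte markers, 3 of 5 were lower at an unadjusted p under 0.05 (median log2FC −0.26), and 4 of 5 microglia markers (median 0.22), 2 of 4 meninges markers (median 0.37) and 2 of 5 astrocyte markers (median 0.21) were higher. Over all genes, 7.54% were lower and 7.95% higher at that limit. EdgeR called 1 of these markers, the astrocyte marker Aqp4, named after its value was seen, and 0.0215% of all genes. Male Egr1cKO replicate 3 had the highest sum of striatal markers of all mice, 93.9 CPM, and choroid plexus markers ran from 30.4 to 2060 CPM over the 24 mice. Against the complete wild type, 7 of 8 choroid plexus markers were higher at that limit in the Cre control and in the Egr1cKO control. Over all genes, 3.13% and 5.31% were higher. The median log2FC of the choroid plexus markers was 2.40 and 1.84. These sums were uneven between mice. In the Cre control, female replicate 1 had 2060 CPM and male replicate 3 had 326 CPM, with the others at 54.9 to 71.8 CPM. In the Egr1cKO control, male replicates 2 and 3 had 815 and 1050 CPM, with the others at 34.8 to 50.5 CPM. The complete wild type ran from 34.1 to 45.3 CPM. The part of any of these markers in the members' values was not tested.

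The non-clustered protocadherins, single genes of the same family outside these clusters, had values of like size. Of 12 tested in the Egr1cKO mice against the Egr1cKO control, 7 were higher and 0 lower at an unadjusted p under 0.05, with a median log2FC of 0.36. Over all tested genes, 7.95% were higher and 7.54% lower at that limit. EdgeR and DESeq2 called none of the 12, against 0.0215% and 0.231% of all genes. Pcdh18 had a log2FC of 0.75 (SE 0.20, adjusted p = 0.252, edgeR), and Pcdh10, known for a role in synapse removal, of 0.42 (SE 0.12, adjusted p = 0.252, edgeR). Of 15 classical cadherins, the calcium-dependent adhesion proteins from which the family takes its name, 3 were higher and 0 lower, with a median of 0.20. With the ribosomal protein sum as covariate, the median over the non-clustered protocadherins was 0.19, with 3 of 12 higher at that limit. Over the clustered members it was 0.08, with 3 of 54 higher, where 4.77% of all genes were at that limit in either direction.

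Genes that act with or upon the clusters were read from the same fit. Of 21 partners and effectors of the proteins, among them the kinases Ptk2 and Ptk2b and the WAVE complex, 4 were higher and 1 lower at an unadjusted p under 0.05 (median 0.09). Of 24 chromatin regulators, among them Ctcf, the cohesin subunits and Smchd1, 2 were higher and 0 lower (median 0.07), where 7.95% of all genes were higher and 7.54% lower. EdgeR and DESeq2 called 0 genes of either list and 0 classical cadherins in the Egr1cKO mice against the Egr1cKO control. In the interaction of floxP and Cre, DESeq2 called 3 of 12 non-clustered protocadherins, 2 of 21 partners and 1 of 24 chromatin regulators. It called 0 of 15 classical cadherins and 0.836% of all genes there. EdgeR called 0 genes of the 4 lists and 0.00507% of all genes in that interaction. In the Egr1cKO control against the complete wild type, the 4 lists held 0 genes higher at an unadjusted p under 0.05. Lower at that limit were 3 of 11 non-clustered protocadherins, 2 of 15 cadherins, 3 of 21 partners and 3 of 24 chromatin regulators. Over all genes, 3.97% were lower and 5.31% higher. EdgeR and DESeq2 called none of the listed genes there, against 0% and 0.00583% of all genes. Prkca, a protein kinase C of the kind that phosphorylates gamma protocadherins, had a log2FC of −0.19 there (SE 0.07, adjusted p = 0.533, edgeR).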

How the data were processed

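Hippocampal polyA RNA of 24 mice was sequenced without strand information. The authors trimmed reads with Trim Galore, mapped them to GRCm38 (mm10) and counted them per gene with STAR (2.7.9 in the submitters' processing notes; the paper names another release), and deposited raw counts for 36605 genes. The annotation used for counting is not given in the sources used here. Counting by own exons is assumed here, because STAR's gene counts leave out reads that match exons of several genes, so constant exons of the alpha and gamma clusters would give no counts. The counting setting is not stated.

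Groups came from the labels, where each number is 1 mouse, and no 2 mice of a group agreed within sampling noise. Symbols and own exonic bases came from GENCODE M21, which named 36493 genes. Differences were tested on counts of all genes in R 4.3.3 with edgeR 4.0.16 (TMM, filterByExpr with a minimum count of 10 on the mice compared, quasi-likelihood F test, Benjamini-Hochberg adjustment, sex as covariate except against the 18 other mice), and members were read from these fits. An SE is the log2FC over the root of its F value, without sign. Called means an adjusted p up to 0.05 with a fold change of 1.2 or more, the paper's limits. DESeq2 1.42.0 and other settings served as alternatives, and the scripts were tested on simulated data. Members and lists were chosen with earlier results of these data known. Named members were the C-type members, the 3 most and the least abundant per kilobase in each cluster, the 3 with the smallest p in each comparison, members called by the main test or without overlap, and the 2 genes of the lists with the smallest p in each of 2 comparisons. Of these genes, 1 is not reported here. No sequences are printed.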

Additional observations from a re-analysis of the deposited data

Results flagged for a closer look

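In 11 of 116 groups of 6 mice, the highest or lowest mouse stood apart from the next by more than Dixon's limit for the range of its group, which chance passes in about 1 of 20 groups. The groups are not independent, because the same mice enter for every member and sum. Male Egr1cKO replicate 3 was low in 5 of them: the alpha sum (44.4 CPM, next mouse 70.1), the beta sum (126 CPM, next 156), the gamma sum (205 CPM, next 275), Pcdhga1 (1.79 CPM, next 3.92) and Pcdhgc5 (70.8 CPM, next 97.9). This mouse also had 10400 CPM of ribosomal protein RNA, 59600 CPM of mitochondrial RNA and 93.9 CPM of striatal markers, each the highest of the Egr1cKO mice.

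Male Cre control replicate 2 was high in 3: the alpha sum (79.6 CPM, next 50.5), Pcdhac2 (42.4 CPM, next 23.0) and Pcdhga3 (16.8 CPM, next 10.4). It had 8230 CPM of ribosomal protein RNA and 41900 CPM of mitochondrial RNA, the lowest of all 24 mice for both. The remaining 3 were single members: Pcdhb2 in male Egr1cKO control replicate 1 (2.82 CPM, next 1.83), Pcdhb17 in female Cre control replicate 3 (17.9 CPM, next 14.5) and Pcdha8 in female complete wild type replicate 3 (0.86 CPM, next 0.416).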

How the results depend on the processing

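The log2 ratios of the cluster sums moved by less than 1 SD between mice under the alternatives tried for them. No direction was reversed for them or for the 3 members with the smallest p in each comparison. The ribosomal protein covariate entered the fits of single genes. With it, the median log2FC of the alpha members in the Egr1cKO mice against the Egr1cKO control was −0.04 in place of 0.40. Of these 12 members, 5 in place of 10 were then above 0. The counts of members moved. Without the filter on low counts edgeR called 10, 7, 2, 5 and 13 members in the Egr1cKO mice against the Egr1cKO control, the Egr1cKO mice against the Cre control, the Cre control and the Egr1cKO control against the complete wild type, and the interaction of floxP and Cre (all genes: 808, 529, 156, 163 and 1173), and 28, 20 and 18 members had an unadjusted p under 0.05 in the first 3. Without that filter, 12.2%, 10.7% and 6.67% of all genes were at that limit there, in either direction. DESeq2 called 2 members in the first, where it called 0.231% of all genes. It had 8 members at an unadjusted p under 0.05 in the third, where 3.83% of all genes were in either direction. With the ribosomal protein sum as covariate, added after the data were seen, the members at that limit were 3, 1, 2, 5 and 7 in these 5 comparisons, 1 higher and 1 lower against all other mice, 7 in females against males and 8 in the sex-by-genotype interaction (main values 5 and 2 for the last 2), where 4.77%, 5.98%, 4.21%, 3.92%, 3.94%, 6.98%, 6.89% and 6.65% of all genes were in either direction. Of the 26 members named, 7 then changed sign in the first comparison, with values of at most 0.42 in size before. The cause was not tested.

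Leaving out 1 mouse at a time, called members ranged from 0 to 7, 0 to 13, 0 to 3 and 0 to 0 in the 4 pairwise comparisons in that order, and from 0 to 1 against all other mice. Members at an unadjusted p under 0.05 ranged from 13 to 34, 9 to 27, 1 to 22 and 7 to 26, and from 8 to 21 against all other mice. Over all genes, the share at that limit in either direction ranged from 9.16% to 22.4%, 8.02% to 20.8%, 3.87% to 16% and 5.58% to 17.1%. Against all other mice it ran from 9.84% to 20.6%. The share of all genes called ranged from 0.00518% to 1.46%, 0.0052% to 4.12%, 0% to 1.07% and 0% to 0.00512%. Against all other mice that share ran from 0.00484% to 1.2%.

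Replicate numbers did not pair the mice. Same-numbered mice had mean correlations of their deviations from 0.023 to −0.023, and 5, 3, 4 and 4 of 12 mice correlated best with a mouse of their own number. With the replicate block, 24, 13, 9 and 15 members had an unadjusted p under 0.05 in the pairwise comparisons, 26 in the interaction and 13 against all other mice, where 17.4%, 12.1%, 5.99%, 10.1%, 18.3% and 14.7% of all genes were in either direction. Low reads limited Pcdha8, whose median was under 1 CPM in each genotype, and members that share their sequence with neighbours keep only part of their reads.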

Other observations

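The shares of C-type members in their cluster were looked at after the values were seen and were not tested. Pcdhac2 made up 53.0% ± 1.9 of the alpha sum in the Egr1cKO mice, 47.4% ± 2.76 in the Egr1cKO control, 48.3% ± 2.98 in the Cre control and 51.0% ± 2.61 in the complete wild type (SD, n = 6 each). Pcdhgc3 went the other way, with 7.56% ± 1.05 of the gamma sum in the Egr1cKO mice against 9.53% ± 0.909 in the Egr1cKO control, with ranges of 5.87 to 8.82% and 8.75 to 11.2% that overlapped. Pcdhgc5 held 34.4%, 34.5%, 33.6% and 34.3% of the gamma sum in the 4 genotypes in that order.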
